A study of Homo sapiens with 8 samples.

Results

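AMPK, the AMP-activated protein kinase, was examined through the messenger RNAs of 8 genes in HCT116, a cell line established from a human colorectal carcinoma. The 8 genes are the catalytic subunits PRKAA1 and PRKAA2, the scaffold subunits PRKAB1 and PRKAB2, the regulatory subunits PRKAG1 and PRKAG2, and the upstream kinases STK11 and CAMKK2. They were taken by gene name from a table of 58735 genes, and all 8 were found and passed the filter on low values. RNA was sequenced in 8 libraries that form 4 groups of 2. One group expressed MAPKAPK2 shRNA 1 (a short hairpin RNA against MAPKAPK2) and another MAPKAPK2 shRNA 2, both at 20 mM glucose, for a time that the labels do not give. The next expressed a control shRNA at 0 mM glucose for 24 h, and the last the same control at 20 mM glucose for 24 h. All 4 groups thus carried an shRNA, and the labels do not say whether the cells were pools or clones.

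AMPK is a heterotrimer of a catalytic alpha, a scaffold beta and a nucleotide-binding gamma subunit, and each class is encoded by more than one gene. When energy is short, AMP and ADP bind the gamma subunit and favour phosphorylation of the alpha subunit by LKB1, the product of STK11. A calcium signal can bring about the same phosphorylation through CaMKK2, the product of CAMKK2. Active AMPK slows lipid, glycogen and protein synthesis and favours catabolism and autophagy. LKB1 is known in the gut as the tumour suppressor lost in Peutz-Jeghers syndrome. MAPKAPK2 encodes MK2, a kinase downstream of p38 in stress signalling. These are facts about the proteins, whereas the measurements below are of mRNA only.

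Between 14252316 and 19975449 reads per library fell in genes. An FPKM of 1 (fragments scaled to exon length and to library size) was reached by 13821 to 14611 genes. Of 9 epithelial marker genes 8 were at 1 FPKM or more in every library, the exception being VIL1. The summed level of all 9 was 1269 to 1852 FPKM, against 4.02 to 7.30 FPKM for 6 fibroblast markers, where only COL1A1 reached 1 FPKM. None of 5 leukocyte and 4 endothelial markers reached 1 FPKM. MAPKAPK2 itself was at 2.77 and 2.54 FPKM with shRNA 1 and at 0.982 and 0.800 FPKM with shRNA 2. In control cells it was at 17.9 and 18.9 FPKM at 0 mM and at 16.4 and 16.2 FPKM at 20 mM glucose. The targeted gene was thus low in all 4 MAPKAPK2 shRNA libraries, with a log2 fold change of -2.72 (SE 0.08, limma adjusted p = 5.9e-05) against the 20 mM controls. This is on the log2(FPKM + 1) scale, which understates changes of genes this low, and a read-based fit (limma voom) gave -3.40. Separate cultures for the replicates are not stated in the labels, and every p-value below therefore measures only the spread between these libraries, which may be technical.

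The members lie on 5 chromosomes (GRCh38), PRKAA1 on chromosome 5 from 40759379 to 40798374 and PRKAG2 on chromosome 7 from 151556111 to 151877125, both on the minus strand. PRKAA2 (56645322 to 56715335, plus strand) and PRKAB2 (147155106 to 147172550, minus strand) lie on chromosome 1. Chromosome 12 holds PRKAB1 (119667753 to 119681630, plus strand), PRKAG1 (49002274 to 49018825, minus strand) and CAMKK2 (121237691 to 121298308, minus strand). STK11 lies on chromosome 19 from 1177558 to 1228435 on the plus strand. Antisense genes cover 12.7% of the exon bases of PRKAG1 (DDN-AS1, at most 1.82 FPKM), 2.19% of PRKAB1 (AC002070.1) and 1.25% of PRKAG2 (PRKAG2-AS1). CBARP, also on the opposite strand, covers 1.72% of STK11. No source used here gives the strand setting of the counting, so reads in these stretches cannot be assigned.

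Sequence before the start sites is shown for PRKAA2, PRKAB2 and PRKAB1, picked for display after their values were seen. RefSeq lists a promoter for all 8 members, and 5 for PRKAG2 (GRCh38.p14). The 250 bases before the start were 61.5% to 83.2% G or C in the members, against a median of 58% over 35116 promoters. The 61.5% is the average over the 5 promoters of PRKAG2. In the printed lines capitals mark matches to 9 motifs searched on both strands, of which 2 kinds occur in them, the GC box GGGCGG and the ETS core CGGAAG. The window of PRKAA2, on the plus strand, is chr1:56645064-56645313. PRKAB2, on the minus strand, is shown over chr1:147172551-147172720, the 170 bases outside annotated exons. PRKAB1 is shown for 30 bases of the plus strand, chr12:119667942-119667971, since some annotated transcript covers its whole window.
PRKAA2: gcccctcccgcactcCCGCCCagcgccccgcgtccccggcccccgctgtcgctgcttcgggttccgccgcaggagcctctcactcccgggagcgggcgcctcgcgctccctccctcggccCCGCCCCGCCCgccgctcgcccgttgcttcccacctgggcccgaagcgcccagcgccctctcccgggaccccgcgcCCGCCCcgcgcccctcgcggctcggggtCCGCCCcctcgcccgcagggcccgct
PRKAB2: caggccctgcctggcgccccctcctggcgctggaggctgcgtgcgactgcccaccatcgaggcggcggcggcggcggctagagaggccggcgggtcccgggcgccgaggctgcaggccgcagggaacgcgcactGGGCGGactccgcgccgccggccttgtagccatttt
PRKAB1: cggagtcgcCGGAAGCGGAAGtcgctgagg

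The PRKAA2 window holds 5 GC boxes, all read on the opposite strand, and one pair of them shares 1 base. The PRKAB2 window holds 1 GC box as printed, and also 1 CCAAT box (CCAAT) in the stretch not printed, while PRKAB1 holds 2 adjacent ETS cores and no GC box. Among the members not shown, GC boxes numbered 8 in PRKAA1, 8 in CAMKK2, 4 in PRKAG1, at most 4 in a PRKAG2 promoter and 2 in STK11. ETS cores numbered 3 in PRKAG1 and at most 1 in a PRKAG2 promoter. Of all 35116 promoters 42.6% held a GC box, 16.5% an ETS core and 32.0% a CCAAT box. The other six motifs had no match in these 3 genes. Among all promoters the cyclic AMP response core TGACG was held by 21.2%, the E-box CACGTG by 6.34% and the ATF4 core TGATG by 28.8%. The AP-1 motif TGAGTCA was held by 4.20%, the letters TATAAA by 10.7% and the FOXO motif GTAAACA by 2.98%. A match is a description of the letters, and nothing here bears on which factors bind.

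Per length, STK11 had the most mRNA of the 8 genes and PRKAA2 the least. STK11, the kinase upstream of AMPK, ranged over all libraries from 12.8 to 19.9 FPKM with a median of 16.7 FPKM. The median was 11.2 FPKM for PRKAG1 (gamma 1), 10.4 FPKM for PRKAA1 (alpha 1) and 9.04 FPKM for CAMKK2. Then followed PRKAB2 (beta 2) at 6.55 FPKM, PRKAG2 (gamma 2) at 5.08 FPKM and PRKAB1 (beta 1) at 4.87 FPKM. PRKAA2 (alpha 2) had a median of 1.25 FPKM, from 83 to 313 reads per library. Of the 7 pairs of neighbours in this order, only STK11 over PRKAG1 and PRKAB1 over PRKAA2 had ranges that did not overlap. PRKAG2 and PRKAB1 could not be ordered, each being the higher in 4 of the 8 libraries. PRKAG3, the gene of the remaining gamma subunit, which is known mainly from skeletal muscle, had 4 reads in 1 shRNA 1 library, 1 read in 1 shRNA 2 library and none in the other six. A count of 0 allows up to 3 reads there, or 0.0435 to 0.0583 FPKM, by counting error alone.

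**Figure D1:**
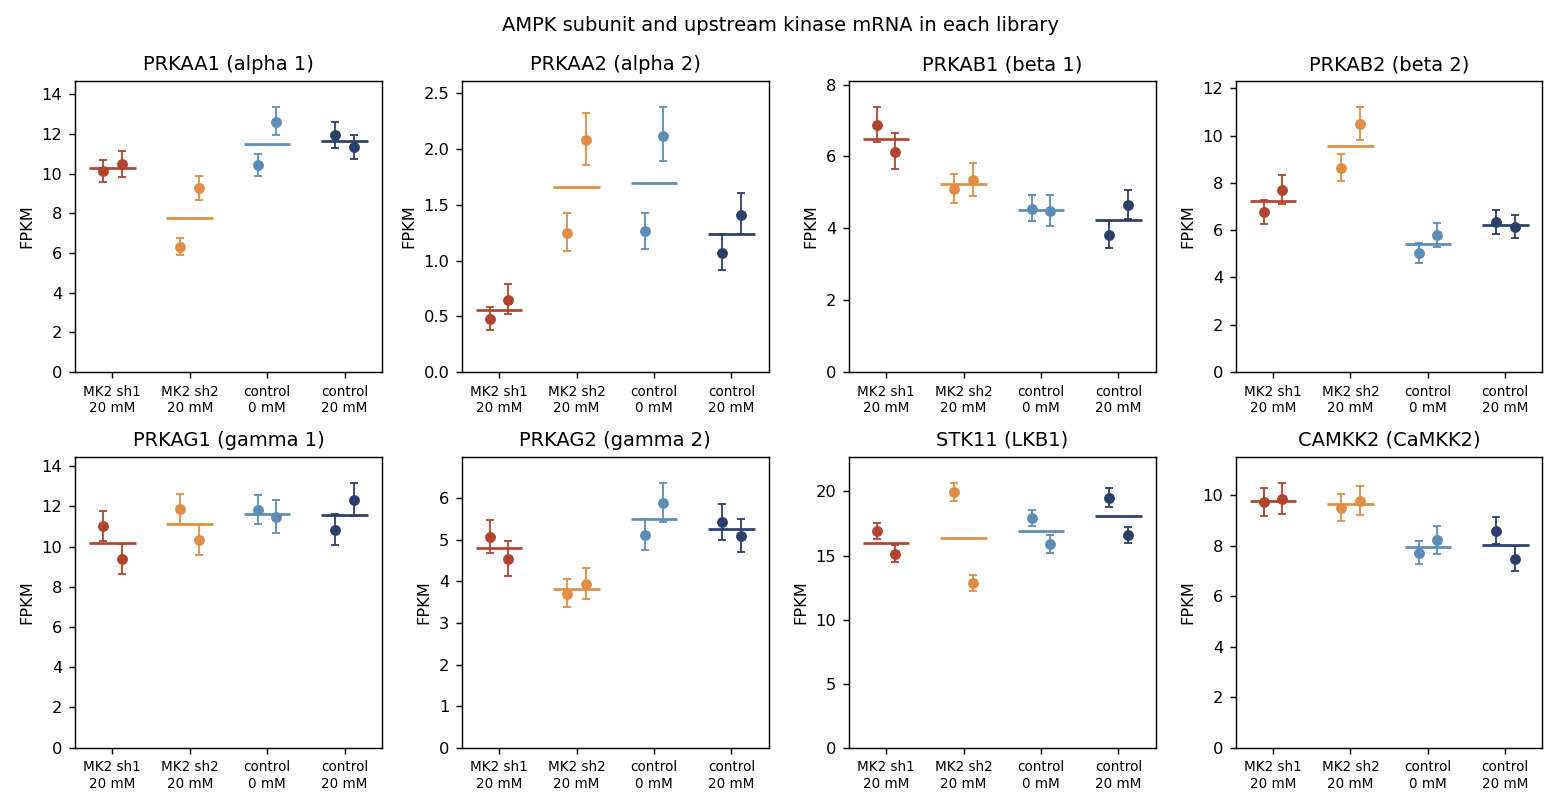
FPKM of each of the 8 genes (vertical axes, linear from 0, one scale per gene) in each library, in the order shRNA 1, shRNA 2 (MK2 sh1 and sh2, at 20 mM glucose), control at 0 mM and control at 20 mM. Points are libraries, bars on them are exact 95% Poisson intervals of the reads and lines are group means; PRKAA2 is at 0.471 and 0.643 FPKM in the shRNA 1 libraries and at 1.07 FPKM or more in all the others.

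The catalytic subunits came mostly from PRKAA1. The PRKAA2 share did not overlap between the shRNAs, and neither did the PRKAB2 and PRKAG2 shares given below. For comparison, the FPKM of single genes, a measure other than a share, did not overlap between the shRNAs for 60% of all genes tested. PRKAA1 was at 10.1 and 10.5 FPKM with shRNA 1, at 6.31 and 9.26 FPKM with shRNA 2, at 10.4 and 12.6 FPKM in 0 mM controls and at 11.9 and 11.3 FPKM in 20 mM controls. All 4 MAPKAPK2 shRNA libraries were therefore below both 20 mM controls, though not below every 0 mM control. Separation from the 20 mM controls, in either direction, held for 30.9% of all genes tested. PRKAA2 was at 0.471 and 0.643 FPKM with shRNA 1, at 1.25 and 2.08 FPKM with shRNA 2, at 1.26 and 2.12 FPKM at 0 mM and at 1.07 and 1.41 FPKM at 20 mM. The libraries with shRNA 1 were the lowest of all, and those with shRNA 2 lay within the range of the 4 controls. As a share of the summed alpha FPKM, PRKAA2 made up 4.45% and 5.79% with shRNA 1, 16.5% and 18.3% with shRNA 2, 10.8% and 14.4% in 0 mM controls and 8.21% and 11.1% in 20 mM controls.

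The scaffold subunits, PRKAB1 and PRKAB2, were the class in which the MAPKAPK2 shRNA libraries stood above all controls. Over all genes tested, 20.9% had MAPKAPK2 shRNA libraries that did not overlap the 4 controls, in either direction. PRKAB1 was at 6.87 and 6.13 FPKM with shRNA 1, at 5.10 and 5.34 FPKM with shRNA 2, at 4.55 and 4.47 FPKM in 0 mM controls and at 3.81 and 4.64 FPKM in 20 mM controls. PRKAB2 was at 6.77 and 7.70 FPKM with shRNA 1, at 8.63 and 10.5 FPKM with shRNA 2, at 5.04 and 5.78 FPKM at 0 mM and at 6.33 and 6.14 FPKM at 20 mM. For both genes the lowest MAPKAPK2 shRNA library was above the highest of the 4 controls, with PRKAB1 higher under shRNA 1 and PRKAB2 higher under shRNA 2. The summed beta FPKM was 13.6 and 13.8 with shRNA 1, 13.7 and 15.8 with shRNA 2, 9.59 and 10.3 at 0 mM and 10.1 and 10.8 at 20 mM. The share of PRKAB2 in that sum was 49.6% and 55.7% with shRNA 1, 62.9% and 66.3% with shRNA 2, 52.5% and 56.4% at 0 mM and 62.4% and 57.0% at 20 mM.

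The regulatory subunits came mostly from PRKAG1. It was at 11.0 and 9.36 FPKM with shRNA 1, at 11.8 and 10.3 FPKM with shRNA 2, at 11.8 and 11.5 FPKM at 0 mM and at 10.8 and 12.3 FPKM at 20 mM. Each of the other groups overlapped the 20 mM controls, while both shRNA 1 libraries were below both 0 mM controls. PRKAG2 was at 5.07 and 4.54 FPKM with shRNA 1, at 3.71 and 3.94 FPKM with shRNA 2, at 5.11 and 5.88 FPKM at 0 mM and at 5.42 and 5.09 FPKM at 20 mM. The MAPKAPK2 shRNA libraries were below all 4 controls, by little with shRNA 1 and further with shRNA 2. Such a separation, in either direction, held for 20.9% of all genes tested. The share of PRKAG2 in the summed gamma FPKM was 31.5% and 32.5% with shRNA 1, 23.8% and 27.6% with shRNA 2, 30.2% and 33.9% at 0 mM and 33.4% and 29.2% at 20 mM.

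The upstream kinases differed in how far their libraries spread. STK11 was at 16.9 and 15.1 FPKM with shRNA 1, at 19.9 and 12.8 FPKM with shRNA 2, at 17.9 and 15.9 FPKM at 0 mM and at 19.5 and 16.6 FPKM at 20 mM. The 2 libraries with shRNA 2 were the highest and the lowest of all 8, so no group stood apart. CAMKK2 was at 9.72 and 9.86 FPKM with shRNA 1, at 9.49 and 9.78 FPKM with shRNA 2, at 7.71 and 8.22 FPKM at 0 mM and at 8.58 and 7.48 FPKM at 20 mM. All 4 MAPKAPK2 shRNA libraries of CAMKK2 were above all 4 controls, where 20.9% of all genes tested were separate in either direction.

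**Figure D2:**
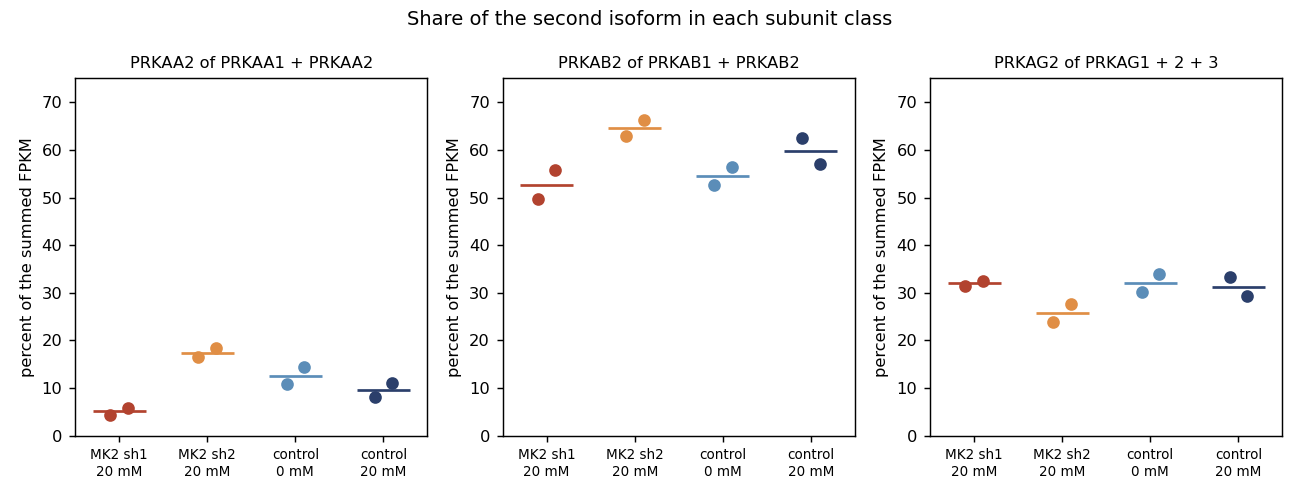
Percent of the summed FPKM of its subunit class that PRKAA2, PRKAB2 and PRKAG2 made up in each library (vertical axes, 0 to 75%), with group means as lines. The PRKAA2 share is 4.45% and 5.79% with shRNA 1 and 16.5% and 18.3% with shRNA 2. The PRKAB2 and PRKAG2 shares do not overlap between the shRNAs either.

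Glucose withdrawal was compared first, in control cells after 24 h, and none of the 8 genes passed the test. Of all 16239 genes tested, limma called 0 (0%) at an adjusted p under 0.05, although 1421 had an unadjusted p under 0.05, and a read-based fit (limma voom) called 28 (0.172%). Neither fit called a member, and in the FPKM-based fit no member had an unadjusted p under 0.05. In these bulk samples fewer cells with a given mRNA and less of that mRNA per cell cannot be told apart. PRKAB2 was the 1 member whose libraries at 0 mM, at 5.04 and 5.78 FPKM, were both outside those at 20 mM, at 6.33 and 6.14 FPKM. It gave a log2 fold change of -0.18 (SE 0.12, limma adjusted p = 0.747), and 41.3% of all genes tested had glucose groups that did not overlap. PRKAA2 averaged 1.69 ± 0.608 FPKM at 0 mM and 1.24 ± 0.243 FPKM at 20 mM (SD, n = 2 each). The 95% interval of its log2 fold change, -0.32 to 0.82, includes changes in both directions. The other six genes had log2 fold changes of -0.09 to 0.08, and the median over the 8 members was 0.00, against -0.01 over all genes tested.

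The second comparison asked how the same genes stand in cells with MAPKAPK2 knocked down. PRKAB1 was the only member that passed over both shRNAs together, and it rose. With shRNA 2 alone PRKAB1 did not pass (log2 fold change 0.26, 95% interval -0.009 to 0.52, limma adjusted p = 0.166). It averaged 5.86 ± 0.805 FPKM over both shRNAs (SD, n = 4) and 4.23 ± 0.588 FPKM in 20 mM controls (SD, n = 2), a log2 fold change of 0.39 (SE 0.10, limma adjusted p = 0.0346) and higher in 4 of 4 libraries. One of 8 members called compares with 17.3% of all genes tested, and the median log2 fold change of the members was -0.13, against -0.00 over all genes. Of the 8 fits that left out 1 library, only the one without shRNA 2 replicate 1 kept the call (limma adjusted p = 0.0429). In the others the limma adjusted p was 0.104 and 0.0673 without shRNA 1 replicate 1 and 2, 0.0575 without shRNA 2 replicate 2, 0.0606 and 0.0614 without 0 mM control replicate 1 and 2, and 0.245 and 0.0725 without 20 mM control replicate 1 and 2.

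PRKAB2, the other scaffold gene, averaged 8.40 ± 1.59 FPKM over both shRNAs (SD, n = 4) and 6.24 ± 0.132 FPKM in 20 mM controls (SD, n = 2). Its log2 fold change of 0.36 (SE 0.11) missed the threshold (limma adjusted p = 0.0588). By the read-based fit it was 0.41 and passed (limma voom adjusted p = 0.0314), as did PRKAB1, so that fit called 2 members, where 22.7% of all genes were called. Without shRNA 2 replicate 1 it passed with a limma adjusted p of 0.0283. CAMKK2 averaged 9.71 ± 0.158 FPKM over both shRNAs and 8.03 ± 0.779 FPKM in 20 mM controls (log2 fold change 0.25, SE 0.08, limma adjusted p = 0.0806). On the low side, PRKAG2 had a log2 fold change of -0.24 (SE 0.09, limma adjusted p = 0.115) and PRKAA1 one of -0.35 (SE 0.15, limma adjusted p = 0.145). Among the alternatives run, PRKAA1 passed only without shRNA 2 replicate 2, with a log2 fold change of -0.48 and a limma adjusted p of 0.0250. PRKAG1, STK11 and PRKAA2 had log2 fold changes of -0.11, -0.16 and -0.14, with 95% intervals that span 0.

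The libraries of both shRNAs did not overlap the 20 mM controls for 5 of the 8 members, 3 higher (PRKAB1, PRKAB2 and CAMKK2) and 2 lower (PRKAA1 and PRKAG2). Among all genes tested, 30.9% had groups that did not overlap in this way. Against all 4 controls, at both glucose levels, 3 members were higher and 1, PRKAG2, was lower, where the share over all genes was 20.9%. Taken singly, the shRNA 1 libraries did not overlap the controls for 3 members on the high side and 3 on the low side, where 65.7% of all genes did not. For shRNA 2 these were 3 and 2 members, against 57.4% of all genes. Since the labels do not give the culture time of the MAPKAPK2 shRNA cells, the knockdown and a difference in time cannot be told apart for any member.

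**Figure D3:**
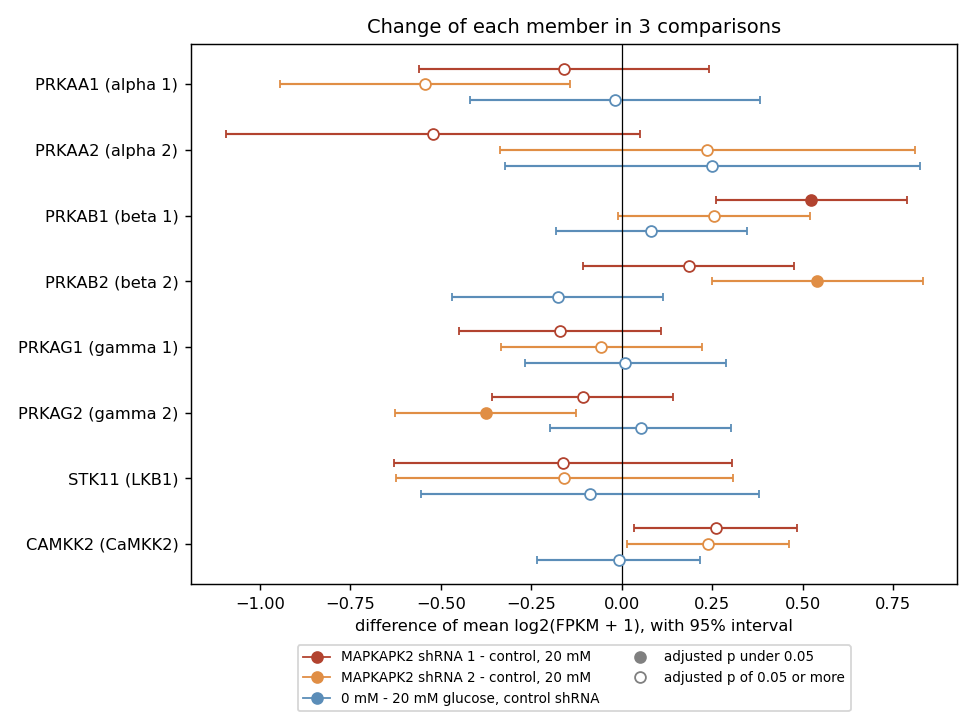
Difference of mean log2(FPKM + 1) for each gene (horizontal axis, log2 scale) with its 95% interval, for shRNA 1 and shRNA 2 against the 20 mM control and for 0 mM against 20 mM glucose in control cells. Filled points have a limma adjusted p under 0.05, which PRKAB1 reaches with shRNA 1, PRKAB2 and PRKAG2 with shRNA 2, and no gene with glucose withdrawal.

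Each shRNA was then set alone against the same 2 control libraries. With shRNA 1, PRKAB1 was the 1 member called, and it rose to 6.50 ± 0.527 FPKM against 4.23 ± 0.588 FPKM in 20 mM controls (SD, n = 2 each; log2 fold change 0.52, SE 0.11, limma adjusted p = 0.0203). That is 1 of 8 members, where 19.8% of all genes tested were called. The call was lost without shRNA 1 replicate 1 (limma adjusted p = 0.127), shRNA 1 replicate 2 (0.0706) and 20 mM control replicate 1 (0.124). PRKAA2 averaged 0.557 ± 0.122 FPKM with shRNA 1 and 1.24 ± 0.243 FPKM in 20 mM controls, or 0.450 of the control mean. The log2 fold change of PRKAA2 was -0.52 (SE 0.24, limma adjusted p of 0.181) on the log2(FPKM + 1) scale, which understates changes of genes this low, and -1.18 in the read-based fit (limma voom adjusted p = 0.0262, where 25.5% of all genes were called).

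With shRNA 2 PRKAB2 rose and PRKAG2 fell, 2 of 8 members, where 18.8% of all genes tested were called. PRKAB2 averaged 9.56 ± 1.32 FPKM with shRNA 2 and 6.24 ± 0.132 FPKM in 20 mM controls (SD, n = 2 each; log2 fold change 0.54, SE 0.12, limma adjusted p = 0.0249). Its call was lost without shRNA 2 replicate 2 (limma adjusted p = 0.0782) and without either 20 mM control (0.114 and 0.126 without replicate 1 and 2). PRKAG2 averaged 3.82 ± 0.163 FPKM with shRNA 2 and 5.26 ± 0.231 FPKM in 20 mM controls (log2 fold change -0.38, SE 0.11, limma adjusted p = 0.0498). It stood at the threshold, and leaving out any 1 of the 8 libraries took the limma adjusted p to between 0.0630 and 0.225. PRKAA1 averaged 7.78 ± 2.09 FPKM with shRNA 2 and 11.6 ± 0.424 FPKM in 20 mM controls. PRKAA1 gave a log2 fold change of -0.54 (SE 0.17, limma adjusted p = 0.0681), and it passed in the read-based fit (-0.61, limma voom adjusted p = 0.0131, where 24.2% of all genes were called). Without shRNA 2 replicate 2 it passed in the FPKM-based fit too (limma adjusted p = 0.0148).

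In the direct comparison of shRNA 2 with shRNA 1, limma called none of the 8 members, where 22.2% of all genes tested were called. At an unadjusted p under 0.05 there were 4 members, and the read-based fit called 1. That one was PRKAA2, at 1.66 ± 0.588 FPKM with shRNA 2 and 0.557 ± 0.122 FPKM with shRNA 1 (SD, n = 2 each). The ratio of these means was 2.98. The libraries of the 2 shRNAs did not overlap for PRKAA2 and 4 other members, where 60% of all genes tested did not. For PRKAA2 the log2 fold change was 0.76 (SE 0.24, with a limma adjusted p of 0.0656), and 1.54 in the read-based fit (limma voom adjusted p = 0.00415, where 28.4% of all genes were called). PRKAA2 was also called with a pseudocount of 0.1, with quantile normalization, among protein-coding genes only and with a replicate block. It was not called with a pseudocount of 0.5 (limma adjusted p = 0.0557) or with no filter on low values (limma adjusted p = 0.150). Nor was it called with only the groups compared, or with any 1 library left out (log2 fold change 0.53 to 0.99). PRKAB2 had a log2 fold change of 0.35 (SE 0.12, limma adjusted p = 0.0831), and PRKAB1 one of -0.27 (SE 0.11, limma adjusted p = 0.133). Without shRNA 2 replicate 1 PRKAB2 was called (limma adjusted p = 0.0475), and without shRNA 2 replicate 2 PRKAA1 was (0.0228). MAPKAPK2 mRNA differed between the same libraries, with a log2 fold change of -0.95 for shRNA 2 against shRNA 1 and -1.57 in the read-based fit. The part of MAPKAPK2 in these values was not tested.

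No isoform share passed a test for the knockdown as a whole, and 4 libraries against the 2 controls at 20 mM could not reach 0.05. The PRKAA2 and PRKAB2 means each join 2 shRNAs whose libraries lay on opposite sides of the 20 mM controls. For these shares a small pooled difference therefore does not mean that neither shRNA differed from the controls. PRKAA2 made up 11.3% ± 7.17 of the alpha sum with both shRNAs (SD, n = 4) and 9.64% ± 2.03 in 20 mM controls (SD, n = 2), with an exact permutation p of 0.8, two-sided. For PRKAB2 the shares were 58.6% ± 7.43 with both shRNAs and 59.7% ± 3.86 in 20 mM controls (exact permutation p = 0.867). For PRKAG2 they were 28.8% ± 3.98 with both shRNAs and 31.3% ± 2.91 in 20 mM controls (exact permutation p = 0.467). Adjusted over the 3 shares, every exact p was 0.867, and 4 libraries against 2 cannot give less than 0.0667. Against all 4 controls, at both glucose levels, an exact p of 0.0286 could be reached. There the exact permutation p was 0.971 for PRKAA2, 0.771 for PRKAB2 and 0.286 for PRKAG2.

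The other genes of the pathway were counted in 4 lists with 55 members, of which 49 passed the filter on low values. After glucose withdrawal limma called 0 of the 49, with 3 at an unadjusted p under 0.05 and 0 in the read-based fit, and their median log2 fold change was 0.04. NUAK2, an AMPK-related kinase that LKB1 also activates, averaged 6.55 ± 0.351 FPKM at 0 mM and 4.65 ± 0.324 FPKM at 20 mM (SD, n = 2 each; log2 fold change 0.42, limma adjusted p = 0.423). SESN2, a stress-induced sestrin that acts on AMPK and mTORC1, averaged 12.4 ± 0.646 FPKM at 0 mM and 9.09 ± 1.47 FPKM at 20 mM (log2 fold change 0.42, limma adjusted p = 0.451). PFKFB2, a glycolytic regulator and AMPK substrate, averaged 4.71 ± 0.296 FPKM at 0 mM and 3.40 ± 0.224 FPKM at 20 mM (log2 fold change 0.38, limma adjusted p = 0.483). PPP2CA, a phosphatase subunit of which 9.22% of exon bases overlap other genes, had a log2 fold change of -0.30 (limma adjusted p = 0.595). These 4 genes had the smallest p of the lists in this comparison, and their groups did not overlap, as for 41.3% of all genes tested, so the separation is a description only.

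With both shRNAs limma called 14 of the 49 pathway genes, 9 higher and 5 lower, where 17.3% of all genes were called, and their median log2 fold change was 0.12. Of 20 AMPK substrates tested 3 rose and 3 fell, and of 12 AMPK-related kinases 3 rose and 1 fell. Of 11 regulators of AMPK 2 rose and 1 fell, and of 6 upstream partners 1 rose. Without either 20 mM control library the count was 5. The genes named next had the smallest p of the lists in this comparison. TBC1D4, a substrate that governs glucose transporter traffic, was at 12.9 and 13.1 FPKM with shRNA 1, at 16.3 and 22.6 FPKM with shRNA 2, and at 3.98 and 4.26 FPKM in 20 mM controls. All 4 MAPKAPK2 shRNA libraries were above both controls, where 30.9% of all genes tested had groups that did not overlap (log2 fold change 1.72, SE 0.13, limma adjusted p = 6.57e-04).

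NUAK2 was at 1.64 and 1.35 FPKM with shRNA 1, at 1.69 and 1.43 FPKM with shRNA 2, and at 4.88 and 4.42 FPKM in 20 mM controls. Its log2 fold change was -1.16 on the log2(FPKM + 1) scale (SE 0.10, limma adjusted p = 0.00111) and -1.60 in the read-based fit. EEF2K, the kinase that slows translation elongation, was at 9.89 and 10.2 FPKM with shRNA 1, at 7.07 and 7.12 FPKM with shRNA 2, and at 4.71 and 4.57 FPKM in 20 mM controls. It rose by 0.74 (log2, SE 0.09, limma adjusted p = 0.00348), and 8.83% of its exon bases overlap other genes. STRADB, a pseudokinase partner of LKB1, was at 6.93 and 6.39 FPKM with shRNA 1, at 11.3 and 11.6 FPKM with shRNA 2, and at 4.94 and 5.67 FPKM in 20 mM controls. Its rise of 0.63 (log2, SE 0.09, limma adjusted p = 0.00438) was lost without 20 mM control replicate 1 (limma adjusted p = 0.0583). STK11, whose product STRADB binds, differed from the controls by -0.16 in the same comparison (95% interval -0.56 to 0.24).

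Between the shRNAs 16 of the 49 pathway genes were called, 11 higher and 5 lower with shRNA 2, where 22.2% of all genes were called. SESN1, a sestrin with 7.09% of its exon bases in overlaps, was at 2.73 and 2.97 FPKM with shRNA 2 and at 8.65 and 7.83 FPKM with shRNA 1 (log2 fold change -1.26, limma adjusted p = 9.08e-04). GYS1, the muscle-type glycogen synthase, was at 35.6 and 30.7 FPKM with shRNA 2 and at 17.7 and 14.96 FPKM with shRNA 1 (log2 fold change 0.98, limma adjusted p = 0.00247). Both genes were named for their small p in this comparison, and the 2 shRNAs did not overlap, as for 60% of all genes tested, so this is a description only. For GYS1 shRNA 1 was near the 20 mM controls, which were at 18.0 and 16.0 FPKM.

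**Figure D4:**
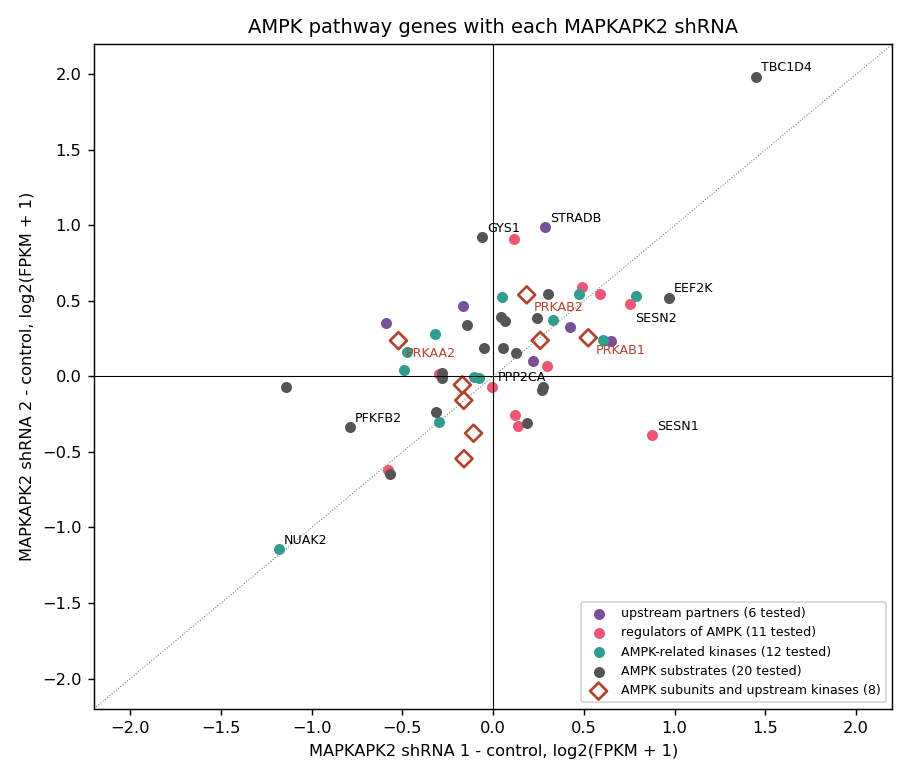
Log2 fold change on the log2(FPKM + 1) scale with shRNA 1 (horizontal axis) and shRNA 2 (vertical axis), each against the same 20 mM controls, for the 49 tested pathway genes (points, by list) and the 8 AMPK subunits and upstream kinases (open diamonds). The dotted line marks equal values; all diamonds lie between -0.54 and 0.54 on both axes, TBC1D4 is at the upper right and NUAK2 at the lower left. Both axes use the same controls.

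The profiles most like those of PRKAA2 and PRKAB2, the 2 members with the widest ranges of group means (0.77 and 0.72 on the log2 scale), were sought among 7119 protein-coding genes over the 8 libraries. The measure was the root mean square difference of log2(FPKM + 1) after each gene was centred on its own mean. HOMER1, a synaptic scaffold gene, was closest to PRKAA2 (0.0936), followed by STYX (0.0963) and SKAP2 (0.108). These genes have higher FPKM than PRKAA2, whose changes the scale understates, so a like profile is not a like fold. Group means with shRNA 1 and shRNA 2 were 0.557 and 1.66 FPKM for PRKAA2, and 4.13 and 6.98 FPKM for HOMER1. HOMER1 was at 3.78 and 4.48 FPKM with shRNA 1, at 6.14 and 7.82 FPKM with shRNA 2, at 6.37 and 8.12 FPKM at 0 mM and at 6.34 and 6.60 FPKM at 20 mM. As with PRKAA2, shRNA 1 held its 2 lowest libraries, and the second 0 mM control its highest. TIPARP, an ADP-ribosyltransferase gene, was closest to PRKAB2 (0.0543), followed by VCL, the gene of vinculin (0.0622), and NCAPD3, a condensin subunit gene (0.0643). Exons of other genes overlap 11.1% of the exon bases of VCL and 8.89% of those of NCAPD3. TIPARP was at 12.1 and 14.1 FPKM with shRNA 1, at 13.9 and 17.6 FPKM with shRNA 2, at 8.50 and 9.89 FPKM at 0 mM and at 10.7 and 10.1 FPKM at 20 mM.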

How the data were processed

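Total RNA of 8 HCT116 libraries was sequenced, and groups were taken from the labels. HISAT2 2.0.5, DESeq2 1.20.0 and featureCounts 1.5.0-p3 were used, per the submitters' processing notes, which state no roles. The authors deposited FPKM per gene; identifiers, positions and exon lengths of all 58735 genes equal those of GENCODE 29 (GRCh38).

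FPKM times gene length was a whole multiple of 1 step per library for 100% of values (tolerance 0.001 of a read, or 1e-06 of larger values). This gave the reads behind each value, whose Poisson intervals and floors cover counting error only. They summed to 0.932 to 1.05 times the authors' library sizes.

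The test used log2(FPKM + 1) of the 16239 genes with at least 1 FPKM in at least 2 libraries. One limma fit (limma 3.58.1, R 4.3.3, eBayes with trend) of 4 group means with 4 residual degrees of freedom gave all contrasts, with Benjamini-Hochberg adjustment over all genes tested. Genes were called at an adjusted p under 0.05, and for both shRNAs together also with the same sign for each. The fit was also run on simulated reads, with the same dispersion for all genes and the same change for both shRNAs. That run does not bear on how stable the calls in these libraries are. Limma voom on the recovered reads, with the authors' library sizes, is the read-based fit. Pseudocounts, filters, scaling, gene classes, a replicate block and leaving out libraries were the other alternatives. Exact permutation tests, promoters and motifs used Python 3.11.15.

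The members and pathway lists were chosen with earlier results of these data known. All 8 members were named, with the 4 pathway genes of smallest p in each of 3 comparisons and the 3 most similar profiles for 2 members; 1 gene chosen this way is not reported here.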

Additional observations from a re-analysis of the deposited data

Results flagged for a closer look

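The direct test of shRNA 2 against shRNA 1 passed in limma for MAPKAPK2 and 6 of the pathway genes named above, and for none of the 8 AMPK subunits and upstream kinases. A list limited to those 8 genes would have been empty; the others were added after that was seen. The log2 fold change of shRNA 2 minus shRNA 1 was -0.95 for MAPKAPK2, the targeted gene (-1.57 in the read-based fit). It was 0.98 for GYS1, 0.70 for STRADB and -1.26 for SESN1, and these were called in all 8 fits that each left out 1 library. It was 0.53 for TBC1D4, -0.45 for EEF2K and 0.46 for PFKFB2, and the calls of these 3 were less stable. With 1 library left out TBC1D4 was called in 1 of 8 fits, EEF2K in 2 and PFKFB2 in 0, with limma adjusted p values of at most 0.165, 0.138 and 0.190.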

How the results depend on the processing

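With 2 libraries per group, most calls among the 8 genes sit close to the threshold. The count of members called with glucose withdrawal was 0 under every alternative run. For both shRNAs against control (1 member) it was 0 with no filter on low values and with only the groups compared in the fit, and 2 by limma voom, among protein-coding genes and with a replicate block. Leaving out 1 library gave 0 to 2. For shRNA 1 (1 member) voom gave 2 and leaving out 1 library 0 to 1. For shRNA 2 (2 members) a pseudocount of 0.1 gave 1, no filter 0, only the groups compared 0 and leaving out 1 library 0 to 1, while quantile normalization, voom and protein-coding genes each gave 3. For shRNA 2 against shRNA 1 (0 members) the pseudocount of 0.1, quantile normalization, voom and the replicate block each gave 1, protein-coding genes 2 and leaving out 1 library 0 to 1. The 14 pathway genes called with both shRNAs became 5 to 18 with 1 library left out. The cause was not tested.

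Over all genes, the count for both shRNAs was 2815, and 686 and 748 without 20 mM control replicate 1 and 2.

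Some directions turned under an alternative, with ranges on both sides of 0. The difference of STK11 between shRNA 2 and shRNA 1 was -0.14 with quantile normalization and -0.30 to 0.30 with 1 library left out. With glucose withdrawal the ranges with 1 library left out were -0.15 to 0.11 for PRKAA1, -0.033 to 0.20 for PRKAB1, -0.076 to 0.096 for PRKAG1, -0.033 to 0.14 for PRKAG2, -0.20 to 0.022 for STK11 and -0.097 to 0.079 for CAMKK2. With shRNA 2 they were -0.15 to 0.033 for PRKAG1 and -0.46 to 0.14 for STK11. The PRKAB2 share differed by 1.54 points against all 4 controls and by -3.81 to 1.91 points with 1 library left out, and the PRKAA2 share by -0.73 to 3.90 points. The share of PRKAG2 kept its sign, at -4.51 to -0.40 points.

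The labels do not say whether libraries with the same replicate number were handled together. Deviations of same-numbered libraries correlated at -0.03 to 0.18 between groups, which does not settle it. With the number as a block PRKAB2 was called for both shRNAs (limma adjusted p = 0.0367), PRKAA1 for shRNA 2 (0.0481) and PRKAA2 between the shRNAs (0.0305), and PRKAG2 was lost for shRNA 2 (0.0615). Depth limits PRKAA2, which rests on 83 to 313 reads per library.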
